A study of Mus musculus with 6 samples.

Results

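The genes described are the ATP-binding cassette (ABC) transporter genes of mouse biliary epithelial cells (BECs), the cells lining the bile ducts. The groups compared differed in whether the gene of the transcription factor Klf5 was targeted for deletion. Members were the genes whose symbol begins with Abc, a subfamily letter from a to g and a digit, and whose mean over the 6 libraries was at least 10 normalised counts. The deposited table lists 50 such symbols. Of these, 32 reached the mean, out of 13490 genes of any kind that did so. Both groups were adult C57BL/6 mice given DDC, a dietary toxicant that injures bile ducts, for 1 week, and both carried Klf5flox/flox, that is, loxP-flanked alleles of Klf5 on both chromosomes. The Klf5 LKO group (n = 3) had the genotype Alfp-CreTg/+;Klf5flox/flox and the control group (n = 3) Alfp-Cre+/+;Klf5flox/flox. Only the Klf5 LKO group carried Cre, so an effect of Cre and an effect of losing Klf5 cannot be told apart. Alfp drives Cre from albumin and alpha-fetoprotein regulatory elements, which are active in hepatocytes as well as in bile duct cells. All RNA was from the intrahepatic bile duct.

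ABC proteins share a domain that binds and hydrolyses ATP, and most use that energy to move a substrate across a membrane. The subfamilies differ in cargo: A members move lipids, B members include the P-glycoprotein drug pumps and mitochondrial and peptide transporters, C members export organic anions and conjugates or regulate channels, and D members serve peroxisomes and lysosomes. The E and F members have no membrane-spanning part and act on ribosomes and translation, and G members export sterols, urate, porphyrins and drugs. In the liver, canalicular ABC pumps of hepatocytes make bile, while bile duct cells modify it and return part of its solutes to the blood. DDC blocks the last step of heme synthesis and fills ducts with porphyrin, which several ABC proteins are known to handle.

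The libraries held 11726934 to 24784167 reads assigned to genes, and 3 reads corresponded to 2.24 to 4.74 normalised counts. Klf5 measured 977, 1192 and 1183 in Klf5 LKO libraries against 2056, 2018 and 2316 in controls, a fall by 0.93 on the log2 scale (SE 0.14, limma adjusted p = 0.0103), but its adjusted p was 0.0625, 0.0681 and 0.0540 without control 1, 2 and 3 in turn. All 12 biliary markers were above the mean of 10, with summed levels of 580779 to 627279 in Klf5 LKO and 598914 to 740712 in control libraries. Hepatocyte markers summed to 12464 to 16446 and 13216 to 17677. Of the 10 of them tested, 1 was called lower in Klf5 LKO, Apob (limma adjusted p = 0.0322), and 0 higher. The 9 leukocyte markers summed to 433 to 2108 and 633 to 3743, with Klf5 LKO 1 and controls 1 and 2 the highest. The 5 mesothelial markers summed to 1825 to 2045 in Klf5 LKO and 2833 to 3019 in control libraries, groups that did not overlap. That gap rested on Msln, singled out after its values were seen, with means of 44.6 and 1242, while Gpm6a, the other abundant marker of the list, had means of 1878 and 1686 with overlapping groups. Fibroblast and stellate cell markers summed to at most 86.3 in any library, and 6 of those 12 genes, Col1a2, Col3a1, Pdgfra, Lrat, Des and Thy1, had no read in any of the 6 libraries. Whether admixed cells had a part in the ABC values was not tested beyond a fit with a leukocyte term, whose values are given beside Abca6, Abcc4 and Abcg2. Since the labels name no animals, a p-value here measures only how far these samples spread, which may be technical.

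The 32 members took 0.174% to 0.205% of all gene reads, with Klf5 LKO libraries at 0.196%, 0.192% and 0.183% and controls at 0.174%, 0.192% and 0.205%. The family's share of reads overlapped between the groups. Compared per kilobase of the principal annotated transcript, on the scale of normalised counts per kb averaged over the 6 libraries, the highest was Abcd3 at 1152 (1031 to 1265 across libraries), the importer of branched-chain and bile acid precursors into peroxisomes. Abcc3, a basolateral exporter of glucuronides and bile acids, followed at 834 (701 to 926). The translation factors Abcf1, Abcf2 and Abce1 came next at 715 (637 to 885), 687 (584 to 782) and 635 (561 to 678), and these 3 overlapped in their ranges. The range of Abcd3 lay above that of every other member, while that of Abcc3 overlapped with Abcf1 and Abcf2. When all annotated exons were taken as the length, the same 5 genes remained the highest, in the order Abcc3, Abcf2, Abcd3, Abcf1 and Abce1. The surfactant lipid transporter Abca3 measured 464 per kb, the organic anion exporters Abcc4 and Abcc5 448 and 368, and the apical exporter Abcg2 316. At the low end were Abcc9 at 7.86, Abca4 at 6.64, Abcd2 at 3.39 and Abca8b at 2.12. The peroxisomal importer and the basolateral exporter thus stood above every A, B and G member.

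**Figure D1:**
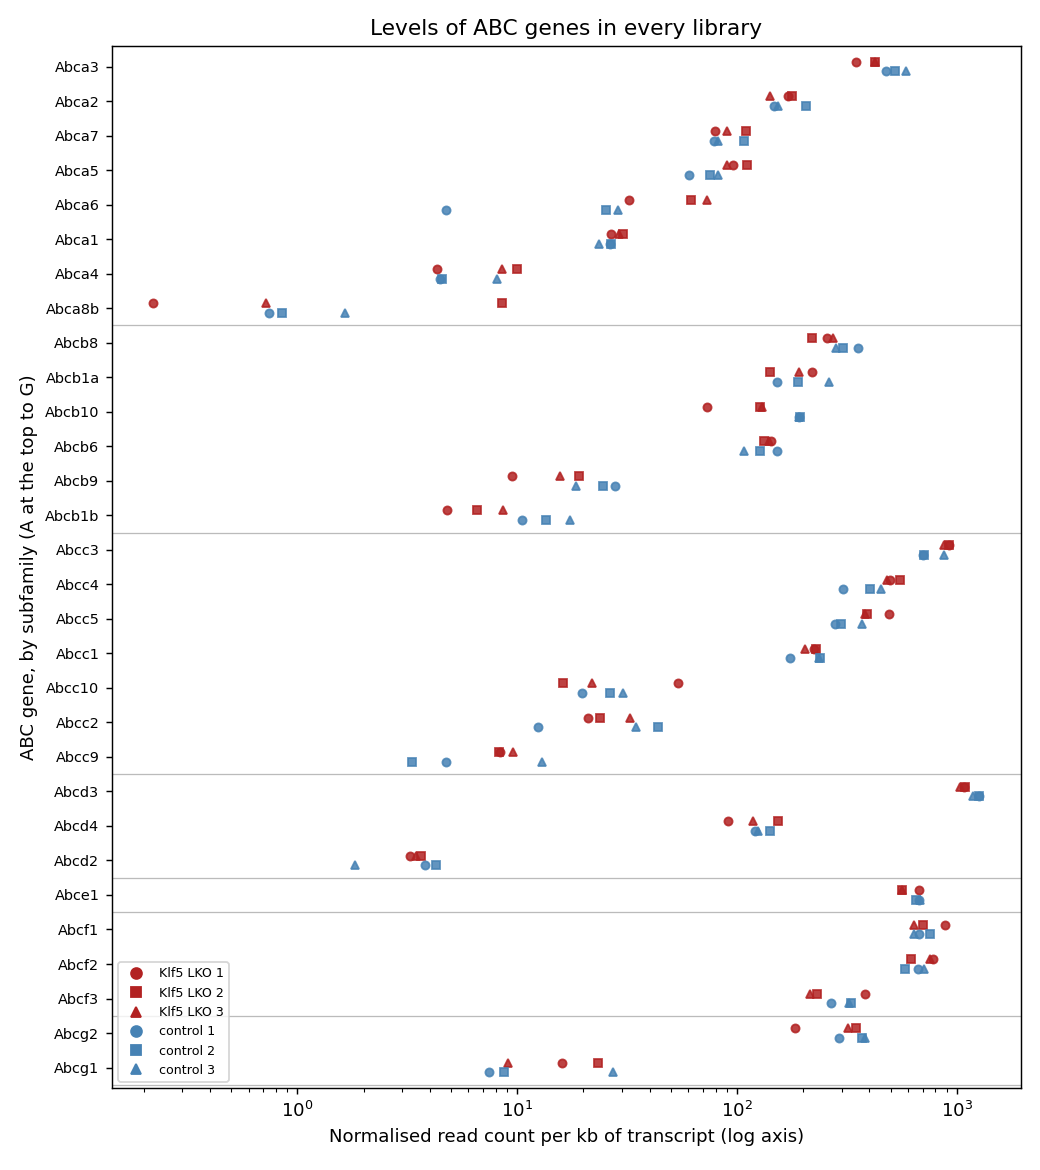
Normalised counts per kb of principal transcript (log axis) for the ABC members reported, by subfamily and then by level, with 1 point per library. Abcd3 is highest at 1152 and Abca8b is lowest at 2.12.

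Between Klf5 LKO and control BECs, none of the 32 members passed an adjusted p of 0.05 in the limma fit over all genes, where 0.652% of the 13490 genes tested were called (0.163% higher and 0.489% lower in Klf5 LKO). At an unadjusted p under 0.05, 6 members were counted (4 higher and 2 lower in Klf5 LKO), beside 10.9% of all genes (4.95% higher and 5.92% lower). The edgeR quasi-likelihood test on reads recovered from the same values also called 0 members, beside 0.623% of all genes. In 10 of 32 members, 31.3%, every Klf5 LKO library lay on the same side of every control, beside 15.6% of all genes tested (7.72% higher and 7.88% lower). Of these, Abca1, Abca5, Abca6, Abcc4 and Abcc5 were higher in Klf5 LKO and Abca3, Abcb1b, Abcb8, Abcb10 and Abcd3 were lower. In bulk samples such as these, fewer cells of a type and less RNA per cell cannot be told apart. The members' median difference (Klf5 LKO minus control, on the log2(value + 1) scale used for all differences) was 0.07, beside -0.01 over all genes, and 18 members had a higher mean in Klf5 LKO and 14 a lower mean. The 95% interval reached a median of 0.47 to either side of a member's difference, beside 0.46 over all genes, and smaller changes could not be resolved for a typical member.

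By subfamily, the median difference was 0.21 for the 8 A members, -0.34 for the 7 B members, 0.26 for the 7 C members, 0.01 for the 4 D members, -0.16 for Abce1, 0.10 for the 3 F members and -0.02 for the 2 G members. With a leukocyte term the A median was -0.023, with 3 of 8 members higher in place of 6, and the G median was -0.40, while the B and C medians were -0.39 and 0.19. With 1 library left out, the B median ran from -0.59 to -0.35, the C median from 0.21 to 0.37 and the A median from 0.12 to 0.34, whereas the D, F and G medians took both signs. In subfamily B, 6 of 7 means were lower in Klf5 LKO, and the 3 members whose groups did not overlap were all lower. In subfamily C, 6 of 7 means were higher, and both members whose groups did not overlap were higher. Subfamily A was mixed, with 3 such members higher and 1 lower. As a share of all gene reads, the B members took 0.0195%, 0.0202% and 0.0197% in Klf5 LKO libraries against 0.0237%, 0.0251% and 0.0250% in controls, and the groups were separate. The C members took 0.0689%, 0.0646% and 0.0610% against 0.0449%, 0.0523% and 0.0625%, where control 3 lay within the Klf5 LKO range. These are descriptions of the subfamilies, with no test over a list.

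**Figure D2:**
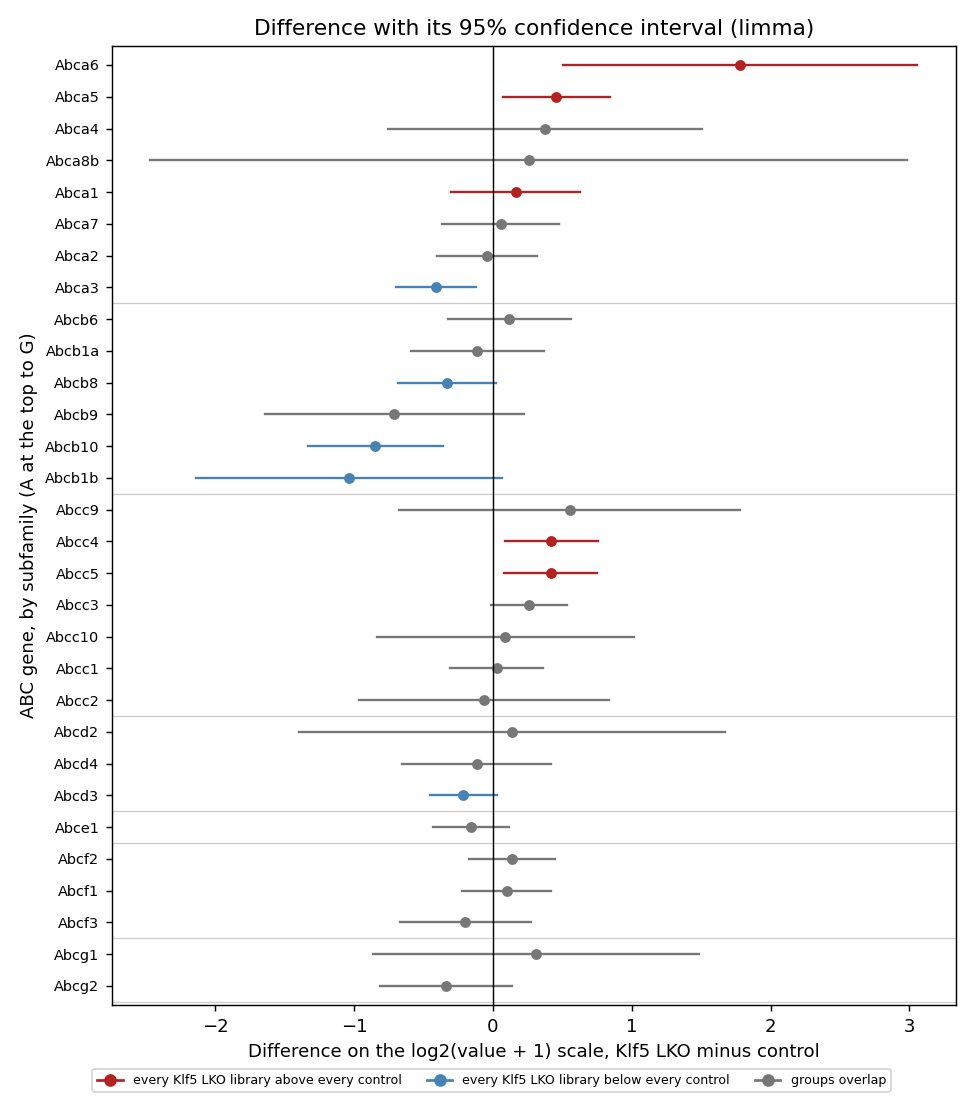
Difference between Klf5 LKO and control (log2(value + 1) scale) with its 95% confidence interval from limma for the ABC members reported, by subfamily. Of the 10 coloured members, whose groups do not overlap, 5 lie above 0 and 5 below, and Abca6 has the highest value at 1.78.

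Abcb10, an inner mitochondrial membrane transporter needed for heme synthesis in red cell precursors, had the lowest p of the family. It measured 314, 548 and 560.0 in Klf5 LKO libraries against 824, 829.7 and 825 in controls (474 ± 139 against 826 ± 3.08, SD, n = 3 each). The controls lay close together, and every Klf5 LKO library was below them, Klf5 LKO 1 the most. The controls held 896, 525 and 812 reads. Counting error alone would spread such counts more, so the control SD of 3.08 understates their uncertainty. The difference was -0.85 (SE 0.22, 95% confidence interval -1.33 to -0.36, adjusted p = 0.141) by limma, and -0.80 by DESeq2 (adjusted p = 0.0317), which called 2.48% of all genes and 1 of the 32 members. The DESeq2 call was lost without Klf5 LKO 1 (-0.58, adjusted p = 0.0673) and without control 1, 2 or 3 (adjusted p = 0.189, 0.215 and 0.144). The authors' deposited table gives Abcb10 a log2 fold change of -0.62 with an adjusted p of 0.0304, the only 1 of the 31 members with an adjusted p there to fall under 0.05, beside 2.41% of its genes. Abcb10 lies on chromosome 8, 123952459 to 123983122, minus strand (mm10).

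Other mitochondrial members had smaller differences than Abcb10. Abcb8, a transporter of the inner mitochondrial membrane, measured 786, 677 and 841 in Klf5 LKO libraries against 1094, 937 and 867 in controls, with groups that did not overlap and a difference of -0.33 (SE 0.16, 95% confidence interval -0.68 to 0.02), which did not pass the adjusted threshold. Abcb6, which binds porphyrins, measured 425, 395 and 416 in Klf5 LKO libraries against 453, 376 and 320.0 in controls and gave 0.12 (95% interval -0.32 to 0.56, adjusted p = 0.882), with overlapping groups. Of the 24 genes of iron-sulfur cluster and heme synthesis tested, 0 passed, and their median difference was 0.06. Among them the iron-sulfur carrier Isca2 gave 0.27 (adjusted p = 0.591).

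Among the exporters of drugs and conjugates, the organic anion exporters Abcc4 and Abcc5 were higher in every Klf5 LKO library than in any control. Abcc4, which exports cyclic nucleotides and bile acids across the basolateral membrane of liver cells, measured 2843, 3149 and 2759.8 in Klf5 LKO libraries against 1742, 2293 and 2575 in controls (2917 ± 205 against 2203 ± 424, SD, n = 3 each). The difference was 0.42 (SE 0.15, 95% confidence interval 0.09 to 0.76, adjusted p = 0.316), and the nearest libraries, Klf5 LKO 3 and control 3, were 2759.8 and 2575. Abcc5, a cyclic nucleotide and folate exporter, measured 2846, 2265 and 2210.4 in Klf5 LKO libraries against 1616, 1732 and 2146 in controls (2440.5 ± 352 against 1831 ± 279, SD, n = 3 each). Its difference was 0.42 (SE 0.15, 95% confidence interval 0.08 to 0.75, adjusted p = 0.324), and here too Klf5 LKO 3 and control 3 nearly met. The fold differences were 1.34 and 1.33, and both missed the adjusted threshold. The log2 difference of Abcc4 was 0.26 without control 1 and 0.28 with a leukocyte term. Abcc4 lies on chromosome 14, 118482692 to 118706219, minus strand, and Abcc5 on chromosome 16, 20331303 to 20426394, minus strand.

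Abcc3 was the most abundant exporter of this group and measured 4631, 4627 and 4352 in Klf5 LKO libraries against 3506, 3531 and 4377 in controls. Control 3 fell between the Klf5 LKO libraries, and the difference was 0.26 (SE 0.13, 95% confidence interval -0.01 to 0.53, adjusted p = 0.485). Abcc1, a basolateral exporter of glutathione conjugates, measured 1520.0, 1558 and 1391 in Klf5 LKO libraries against 1188, 1622 and 1611 in controls, a difference of 0.03 (95% interval -0.31 to 0.36, adjusted p = 0.967), with the controls spanning the Klf5 LKO range. Abcc2, the apical exporter of bilirubin and glutathione conjugates, measured 168, 192 and 261 in Klf5 LKO libraries against 99.3, 351 and 277 in controls. Its controls differed among themselves by more than the groups did, and the interval of the difference ran from -0.97 to 0.83. Abcg2, the apical exporter of urate, porphyrins and drugs, measured 1048, 1985 and 1836 in Klf5 LKO libraries against 1664, 2119 and 2195 in controls. Klf5 LKO 1 was the lowest library, and the difference was -0.34 (95% interval -0.82 to 0.14, adjusted p = 0.629). It was -0.05 without Klf5 LKO 1 and -0.61 with a leukocyte term (adjusted p = 0.193). Abcc10, an exporter of lipophilic drugs, had overlapping groups and a difference of 0.09 (95% interval -0.83 to 1.01, adjusted p = 0.962), which ran from -0.41 to 0.45 with 1 library left out.

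The P-glycoprotein pair Abcb1a and Abcb1b are related neighbours on chromosome 5, 49.6 kb apart, and how reads were divided between them was not tested. Abcb1a measured 1100.2, 708 and 954 in Klf5 LKO libraries against 763, 942 and 1309 in controls, a difference of -0.11 (95% interval -0.59 to 0.36, adjusted p = 0.896) with overlapping groups. Abcb1b, the minor copy at 10.3 normalised counts per kb beside 193 for Abcb1a, measured 20.5, 28.3 and 37.3 in Klf5 LKO libraries against 45.1, 58.5 and 75.2 in controls. Every Klf5 LKO library of Abcb1b was below every control, and the difference was -1.04 (SE 0.51, 95% confidence interval -2.14 to 0.07, adjusted p = 0.496).

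Among the lipid transporters, Abca6 showed the highest difference of all 32 members. Abca6 belongs to a cluster of related A genes on chromosome 11 and measured 169, 323 and 383 in Klf5 LKO libraries against 24.8, 133 and 150.4 in controls (292 ± 110.3 against 103 ± 68.0, SD, n = 3 each). The libraries of each group spread widely: Klf5 LKO 1 lay near control 3, and control 1 far below the other controls. The difference was 1.78 (SE 0.59, 95% confidence interval 0.50 to 3.06, adjusted p = 0.266). It was 0.96 without control 1 and 1.05 (adjusted p = 0.382) with a leukocyte term in the fit. The lowest Abca6 library of each group, Klf5 LKO 1 and control 1, had the highest leukocyte marker sum of its group. On the same strand, 17.6 kb away, lies Abca5, a lipid transporter of lysosomes and late endosomes, which measured 793, 917 and 740.0 in Klf5 LKO libraries against 496, 623 and 673 in controls (817 ± 90.7 against 597 ± 91.2, SD, n = 3 each). Again every Klf5 LKO library was higher, with a difference of 0.46 (SE 0.18, 95% confidence interval 0.07 to 0.84, adjusted p = 0.360). The third member of this cluster, Abca8b, 181 kb from Abca6, was near the threshold of the list and had 2, 85 and 5 reads in Klf5 LKO libraries against 6, 4 and 12 in controls. Klf5 LKO 2 alone held most of them, and the interval of the difference ran from -2.47 to 2.98. Abca6 lies on chromosome 11, 110176820 to 110251776, minus strand, and Abca5 on chromosome 11, 110269369 to 110337716, minus strand.

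Abca3, which loads phospholipid into the lamellar bodies of lung cells, was the most abundant A member. It measured 2255, 2747 and 2741 in Klf5 LKO libraries against 3095, 3407 and 3788 in controls (2581 ± 282 against 3430.2 ± 347, SD, n = 3 each). All Klf5 LKO libraries were below all controls, and the difference was -0.41 (SE 0.13, 95% confidence interval -0.70 to -0.12, adjusted p = 0.263). The annotation places an antisense-strand gene, D330041H03Rik, over 914 bases of Abca3 on chromosome 17 (24351950 to 24410201, plus strand). That gene had a mean of 22.4 normalised counts, and reads of the pair cannot be told apart without strand. Of 11 genes of lamellar bodies and lysosomal lipid handling tested, 0 passed, with a median difference of 0.02. Lmbrd1 had the lowest p value of them, with a difference of 0.41 (limma adjusted p = 0.398). The remaining A members, the endosomal Abca2, the photoreceptor flippase Abca4 and the Abca1 relative Abca7, had overlapping groups and differences of -0.04, 0.37 and 0.05.

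Abca1, which hands cholesterol and phospholipid to apolipoprotein A-I, measured 275, 310.0 and 297 in Klf5 LKO libraries against 270.4, 275 and 243 in controls. The groups did not overlap, but Klf5 LKO 1 and control 2 were almost equal, and the difference was 0.16 (SE 0.21, 95% confidence interval -0.30 to 0.63, adjusted p = 0.838). Abcg1, which exports sterols to HDL, measured 92.8, 136 and 53.2 in Klf5 LKO libraries against 43.2, 50.6 and 159.5 in controls, with libraries of both groups interleaved and a difference of 0.31 (95% interval -0.87 to 1.48, adjusted p = 0.886). Abcg5 and Abcg8, which together export sterols into bile, were near 0: Abcg8 had no read, and Abcg5 had 1 read, in Klf5 LKO 3. Of 16 HDL and cholesterol efflux partners tested, 1 was called lower and 0 higher, beside 0.489% lower and 0.163% higher over all genes. The means of 11 partners were lower in Klf5 LKO and those of 5 higher, with a median difference of -0.10. Nceh1, a hydrolase that frees cholesterol from its esters, measured 624, 609.6 and 429 against 993, 988 and 1346, and fell by 1.00 (SE 0.20, limma adjusted p = 0.0436). That call was lost in the edgeR fit (adjusted p = 0.0523) and whenever a library other than Klf5 LKO 1 was left out (adjusted p = 0.0610 to 0.159).

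**Figure D3:**
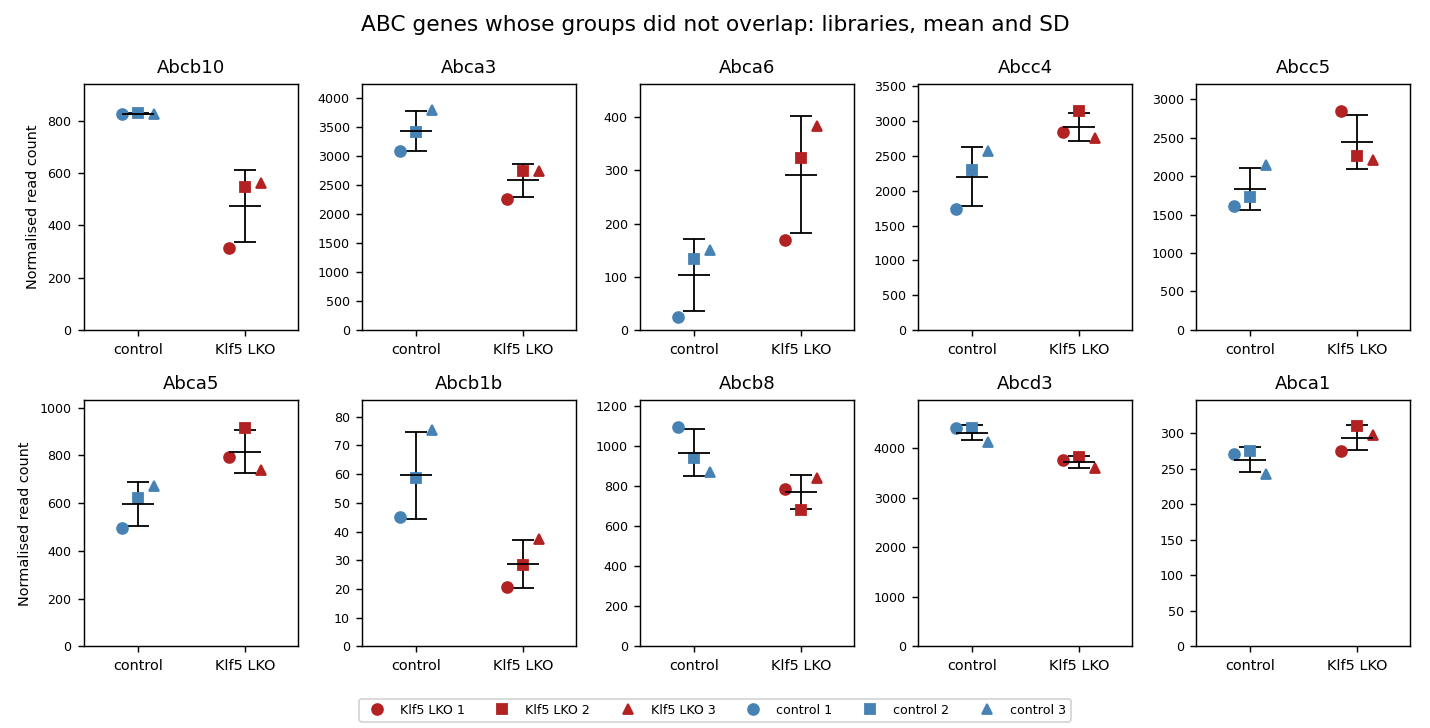
Normalised counts in each library (points, axes from 0) for the 10 ABC members whose Klf5 LKO and control libraries do not overlap, with the mean and SD of each group (n = 3). In Abcb10 the controls lie between 824 and 829.7 and the Klf5 LKO libraries between 314 and 560.0.

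Of the 6 members with an unadjusted p under 0.05, Abcb10, Abca5, Abcc4 and Abcc5 have a RefSeq start region in which no annotated exon lies, and the 250 bases before their start are shown because these are the members nearest to a call. The sequences are from RefSeq on GRCm38.p6, the assembly called mm10, in the sense of the gene and 5′ to 3′, and capitals mark CACCC or its reverse complement GGGTG, and GGGCGG or its reverse complement CCGCCC, the letters of boxes that KLF and SP factors are known to bind. They lie on the minus strand at chr8:123983123-123983372 for Abcb10, chr11:110337717-110337966 for Abca5, chr14:118706220-118706469 for Abcc4 and chr16:20426395-20426644 for Abcc5.
Abcb10: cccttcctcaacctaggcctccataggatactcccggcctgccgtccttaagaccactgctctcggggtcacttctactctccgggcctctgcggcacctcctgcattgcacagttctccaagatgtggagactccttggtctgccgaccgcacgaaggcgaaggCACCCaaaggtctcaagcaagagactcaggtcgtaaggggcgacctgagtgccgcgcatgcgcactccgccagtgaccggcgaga
Abca5: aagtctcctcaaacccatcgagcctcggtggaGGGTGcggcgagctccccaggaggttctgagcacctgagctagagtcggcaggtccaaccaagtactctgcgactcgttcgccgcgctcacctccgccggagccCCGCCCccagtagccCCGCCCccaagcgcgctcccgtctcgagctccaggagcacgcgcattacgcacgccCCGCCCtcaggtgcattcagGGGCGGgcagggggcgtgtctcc
Abcc4: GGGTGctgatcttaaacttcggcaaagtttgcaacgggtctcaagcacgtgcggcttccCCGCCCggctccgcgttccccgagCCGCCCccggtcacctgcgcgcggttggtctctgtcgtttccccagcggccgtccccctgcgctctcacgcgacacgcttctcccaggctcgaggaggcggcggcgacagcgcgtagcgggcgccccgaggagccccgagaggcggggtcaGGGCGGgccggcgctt
Abcc5: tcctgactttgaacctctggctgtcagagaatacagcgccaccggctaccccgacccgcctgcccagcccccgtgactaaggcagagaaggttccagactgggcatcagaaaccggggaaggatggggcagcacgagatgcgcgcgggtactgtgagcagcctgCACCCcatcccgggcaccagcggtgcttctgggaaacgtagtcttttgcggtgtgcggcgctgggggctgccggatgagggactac
The window of Abcb10 holds 1 match to CACCC and 0 to GGGCGG, as does that of Abcc5, while Abcc4 holds 1 and 3 and Abca5 holds 1 and 4, with no overlap between matches of the motifs. A RefSeq start within 500 bases of the GENCODE start was found for 22 members, some of them with an annotated exon in the window. Of these 22 windows, 15 (68.2%) hold CACCC on either strand, beside 52.0% of 32851 RefSeq windows of the same length. GGGCGG is also held by 15 of 22 (68.2%), beside 32.7% of all windows. The windows of all genes were not limited to expressed genes, to 1 start per gene or by distance from the GENCODE start. The shares are thus of unlike sets, and no enrichment was tested. A match is a run of letters, and binding was not measured.

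In the peroxisomal and lysosomal subfamily D, Abcd3 measured 3755, 3814 and 3597 in Klf5 LKO libraries against 4400.3, 4413 and 4133 in controls (3722 ± 112 against 4315 ± 158, SD, n = 3 each). The groups did not overlap, and the difference was small, at -0.21 (SE 0.11, 95% confidence interval -0.46 to 0.03, adjusted p = 0.532). Abcd2, another peroxisomal member, and Abcd4, which serves lysosomal vitamin B12 release, had overlapping groups and differences of 0.14 and -0.12. As a share of all reads, subfamily D took 0.0231%, 0.0240% and 0.0224% in Klf5 LKO libraries against 0.0267%, 0.0266% and 0.0256% in controls, which did not overlap. Abcd3 held most of those reads, so this gap largely repeats its own, and the median difference of the 4 D members was 0.01. Of 29 peroxins and enzymes of peroxisomal beta oxidation tested, 0 passed, with a median difference of -0.06. The lowest p values there belonged to Pex14, the docking factor for imported proteins, at 1387, 1083 and 1167 against 904, 901 and 818, and Pex13, its membrane partner, at 1057, 999 and 1019 against 726, 700.1 and 828. Both were higher in every Klf5 LKO library than in any control, with differences of 0.46 and 0.45 (limma adjusted p = 0.263 and 0.266). In 3 other genes of the list, Pex3, Acox3 and Acaa1b, named after their values were seen, every Klf5 LKO library was lower, with differences of -0.34, -0.17 and -0.37 (limma adjusted p = 0.522, 0.795 and 0.854). In all, 5 of the 29 (17.2%) had separate groups, 2 higher and 3 lower, near the 15.6% of all genes tested.

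The members without a membrane domain were abundant, and none of them passed the adjusted threshold. Abce1, which splits ribosomes after translation ends, measured 2562, 2128 and 2146 in Klf5 LKO libraries against 2554, 2479.7 and 2571 in controls, a difference of -0.16 (95% interval -0.43 to 0.11, adjusted p = 0.704). Abcf1, which binds the initiation factor eIF2 and ribosomes, measured 2797, 2220.1 and 2018 in Klf5 LKO libraries against 2117, 2386 and 2015 in controls and gave 0.10 (95% interval -0.22 to 0.42, adjusted p = 0.861). Abcf2, a ribosome-associated ATPase, measured 2008, 1593 and 1944 in Klf5 LKO libraries against 1707, 1499.9 and 1831 in controls and gave 0.14 (95% interval -0.18 to 0.45, adjusted p = 0.797), or 0.057 to 0.24 with 1 library left out. Abcf3, another such ATPase, gave -0.20 (95% interval -0.67 to 0.27, adjusted p = 0.804), or -0.46 to -0.04 with 1 library left out. All 4 pairs of groups overlapped, and for Abce1, Abcf1 and Abcf2 the bounds farthest from 0 were -0.43 and 0.45. Of 17 partners in ribosome recycling and translational control tested, 0 passed, with a median difference of 0.04, and Eif2s2, an eIF2 subunit, gave 0.23 (limma adjusted p = 0.590).

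Abcb11 and Abcb4, pumps of the hepatocyte canaliculus, were at the edge of detection in both groups, unlike Abcc2. Abcb11, the bile salt export pump, had 1 read, in Klf5 LKO 3, and none in the other 5 libraries. Abcb4, which flips phosphatidylcholine into bile, had 7, 18 and 8 reads in Klf5 LKO libraries against 7, 2 and 10 in controls, a mean of 7.91 normalised counts, and so fell outside the list. A count of 0 in a library allows a level of up to 2.24 to 4.74 normalised counts, by library, for counting error only. The hepatocyte markers summed to at least 12464 in the same libraries, but Alb alone had means of 7240 in Klf5 LKO and 8188 in controls. Other genes of that list were also well above the mean of 10. Fgb ranged from 1036 to 4955 across libraries, Ttr from 1584 to 2703 and Hnf4a from 1277 to 2061. Apob ran from 224 to 808 and Tat from 86.9 to 580, while Apoa1, Cyp2e1, Cyp3a11 and Slc10a1 reached at most 87.3. Only Cps1, Pck1, Ass1 and Asgr1 were near absent, with at most 10 reads in any library. Outside the list, by subfamily, were 8 of 16 A symbols, 3 of 10 B, 3 of 10 C and 4 of 6 G symbols, and Abca12, Abca8a, Abcb5 and Abcg8 had no read in any library. All D, E and F symbols were members. Abcc8, with a mean of 9.20, lay just outside the threshold and Abca8b, with 15.7, and Abcd2, with 18.7, just inside.

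Some ABC genes carry other symbols and stand outside the rule. Cftr, the chloride channel of the C subfamily that drives bicarbonate secretion into bile, measured 3343, 2836 and 2605 in Klf5 LKO libraries against 2126, 1871 and 1866 in controls (2928 ± 377 against 1955 ± 149, SD, n = 3 each). Every Klf5 LKO library was higher than every control, and the difference was 0.58 (SE 0.13, 95% confidence interval 0.28 to 0.87, adjusted p = 0.0935) by limma and had an adjusted p of 0.00508 by DESeq2 and 0.113 by edgeR. The peptide transporter genes Tap1 and Tap2 belong to subfamily B and feed MHC class I molecules. Tap2 measured 3233, 2332 and 2503 in Klf5 LKO libraries against 2270.5, 2247 and 1821 in controls, with separate groups and a difference of 0.34 (95% interval 0.01 to 0.68, adjusted p = 0.451), or 0.20 without Klf5 LKO 1. Tap1 measured 1006, 1131 and 1047 in Klf5 LKO libraries against 1025, 1173 and 1014 in controls and gave -0.01 (95% interval -0.32 to 0.30, adjusted p = 0.985). Of 15 genes of MHC class I peptide loading tested, 0 passed, with a median difference of 0.07. The tapasin gene Tapbp and the class I transactivator gene Nlrc5 had the lowest p values of them. Their differences were 0.31 and 0.59 (limma adjusted p = 0.393 and 0.436). Abcb9, a lysosomal peptide transporter related to them and a member by the rule, measured 34.5, 70.1 and 57.5 in Klf5 LKO libraries against 102, 90.1 and 68.1 in controls and gave -0.71 (95% interval -1.64 to 0.22, adjusted p = 0.600).

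Other gene lists that feed or control ABC transport were read from the same fit. Of 22 nuclear receptors and factors known to act on ABC genes, 0 passed, with a median difference of -0.01. The lowest p values were for Pparg, a lipid-sensing receptor, at 222, 212 and 253 against 430.4, 345 and 489.7 (difference -0.87, limma adjusted p = 0.130), and Vdr, the vitamin D receptor, at 2.46, 15.7 and 21.3 against 91.0, 79.0 and 54.9 (difference -2.77, limma adjusted p = 0.153). Both had separate groups, lower in Klf5 LKO. Of 24 tested enzymes that make glutathione and glucuronide conjugates, which C members export, 2 were called lower and 0 higher. Over all genes, 0.489% were called lower and 0.163% higher. The means of 19 enzymes were lower in Klf5 LKO and those of 5 higher, with a median difference of -0.23. Gsta4, a glutathione transferase acting on lipid aldehydes, measured 392, 384 and 456 against 1177, 962 and 1627 and fell by 1.58 (SE 0.20, limma adjusted p = 0.00447), a call kept with each library left out in turn. Gstm2, another glutathione transferase, measured 342, 311 and 217 against 582, 631 and 769 and fell by 1.20 (SE 0.22, limma adjusted p = 0.0322), a call lost whenever a library other than Klf5 LKO 1 was left out (adjusted p = 0.0565 to 0.146). In 8 of the 24 enzymes every Klf5 LKO library was below every control, beside 7.88% of all genes tested, and in 0 was every library above, beside 7.72%.

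Of 9 bile acid and organic anion carriers outside the ABC family, 0 passed, with a median difference of -0.16. Slco2a1, a prostaglandin carrier, measured 789.6, 1086 and 738 against 1653, 1198 and 2120.4 (difference -0.91, limma adjusted p = 0.0957). Slco4a1, a thyroid hormone carrier, had no read in any Klf5 LKO library and 1, 18 and 31 reads in the controls (limma adjusted p = 0.476). Kcnj11, the channel subunit that pairs with the sulfonylurea receptors Abcc8 and Abcc9, was the only KATP partner tested. It had 24, 6 and 41 reads in Klf5 LKO libraries against 1, 13 and 5 in controls. Its groups overlapped, and the difference was 1.44 (95% interval -1.15 to 4.04, limma adjusted p = 0.716). Abcc9 itself gave 0.55 (95% interval -0.67 to 1.78, adjusted p = 0.788).

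**Figure D4:**
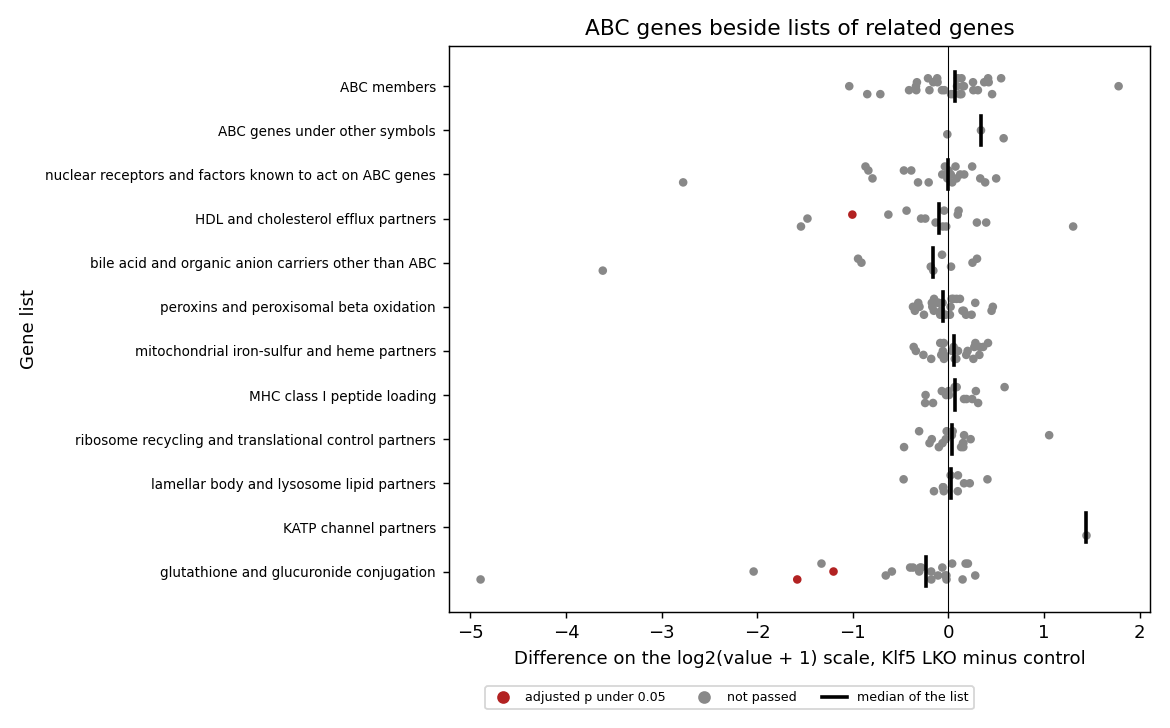
Difference between Klf5 LKO and control (log2(value + 1) scale) for each tested gene of the ABC family and of the lists of related genes, with the median of each list as a bar. The 3 red points are Nceh1, Gstm2 and Gsta4, and no ABC member is red.

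The spread between libraries of a group set what could be seen. For the 12 members with a mean of at least 1000 normalised counts, the median coefficient of variation was 11.5% in Klf5 LKO and 13.7% in controls. For the 7 members with a mean under 100 it was 33.4% and 39.2%. Those 7 were Abca4, Abca8b, Abcb1b, Abcb9, Abcc9, Abcd2 and Abcg1. Klf5 LKO 1 was the highest or the lowest of the 6 libraries in 15 of 32 members (46.9%), beside 48.1% of all genes tested.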

How the data were processed

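Single-end RNA-seq libraries of BECs from 3 Klf5 LKO and 3 control samples were compared, grouped and numbered by their titles. Per the submitters' processing notes, TopHat, Bowtie2, DESeq2 and mm10 were used. The read counter, like the annotation, is not given in the sources used here. The signal the authors deposited is a normalised count: multiplying each library's values by its own size factor gave whole reads, within 0.001, for 100% of values. The authors' deposited comparison table holds the mean signal, log2 fold changes, a test score and p-values, and the p-value there is named as the authors' wherever it is printed.

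Per the labels' protocols, libraries were amplified from low input, and without molecular identifiers reads are not independent molecules. The 24404 listed symbols were filtered to the 13490 with a mean of at least 10. Differences were tested with limma 3.58.1 (R 4.3.3) on log2(value + 1), which understates changes of low genes, with a mean trend, two-sided, Benjamini-Hochberg adjustment over 13490 genes and a threshold of 0.05. DESeq2 1.42.0 and edgeR 4.0.16 were run on the recovered reads as alternatives. The other alternatives were TMM and upper quartile scaling, no filter, a minimum mean of 50, a pseudocount of 0.5 or 5, a replicate block, a leukocyte term and leaving out each library. Leaving out each library in the DESeq2 fit was chosen after seeing the data. The code was tested on simulated data.

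Positions and lengths are from the GENCODE M21 annotation, and all 32 members were matched. Of these, 23 had a RefSeq start region, 22 of them with a start within 500 bases of the GENCODE start. Genes described with values per library were those past the threshold, those with separate groups, the highest per kb and the lowest p in each subfamily, and a set of transporters of known function. Cell type markers and lists of related genes were read from the same fit. The members and lists were chosen with earlier results of these data known. Some members and related genes are counted in these totals but are not reported here.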

Additional observations from a re-analysis of the deposited data

How the results depend on the processing

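Of 16 alternatives to the limma fit, DESeq2 changed the counts most, with 335 genes called in place of 88 (119 higher and 216 lower, in place of 22 and 66) and 1 ABC member in place of 0. Leaving out 1 library gave 14 to 105 calls over all genes, the fewest without control 2 (14) and control 1 (24), and 0 to 0 members. The members' median difference of 0.07 became -0.07 with a leukocyte term and ran from -0.06 to 0.10 with 1 library left out. With the leukocyte term Abcc1 turned to -0.059 and Abcg1 to -0.19. With 1 library left out, Abcc1 ran from -0.12 to 0.10, Abcg1 from -0.038 to 0.89, Abcc2 from -0.61 to 0.29, Abcf1 from -0.034 to 0.20, Tap1 from -0.058 to 0.056, Abcb1a from -0.29 to 0.10 and Abcb6 from -0.0039 to 0.25, while Abcb10 ran from -0.99 to -0.58. The sign held under all 16 for 18 of 32 members. The cause of these shifts was not tested. The deviations of same-numbered libraries had correlations of 0.18, -0.012 and 0.11, and Klf5 LKO 2 correlated best with control 3 (0.14). The labels name no pairs, and correlations among 3 libraries a group cannot decide whether same-numbered libraries were paired. The replicate block gave 110 calls and 0 members, and Nceh1 and Gstm2 then missed the threshold (adjusted p = 0.0644 and 0.0502), as they did with no filter (0.0668 and 0.0522) and with a leukocyte term (0.0633 each). With 3 libraries a group, low members such as Abca8b and Abcd2 had intervals too wide to resolve changes.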

Other observations

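Some ABC symbols below the mean of 10 normalised counts had reads in only 2 of the 6 libraries. Abcg3, a rodent G member, had 42 reads in Klf5 LKO 2 and 1 in control 1, and none in the other 4 libraries. Abca13, a very large A member, had 46 reads in control 3 and 1 in control 2. Abcg4, a sterol exporter known from the nervous system, had 43 reads in Klf5 LKO 1 and 15 in control 3. They were not counted as members.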
